A study of Mus musculus with 23 samples.

Results

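The question was whether the genotype vavCre changed gene expression differently in macrophages of the spleen and of the bone marrow. It was answered with 12 of the 23 libraries of the series, all those of the 4 groups that cross genotype with tissue: RPM_d7_WT, RPM_d7_vavCre, BMM_d7_WT and BMM_d7_vavCre, each with 3 libraries. For every gene the vavCre effect was taken in each tissue as vavCre minus wild type on the scale log2(value + 1). The marrow effect was then subtracted from the spleen effect. A positive difference therefore means a stronger rise or a weaker fall in spleen. Genes were sorted by 3 calls, the spleen effect, the marrow effect and the difference, into shared, opposite, spleen-only and marrow-only responses, and the wild-type levels from which the responses started were compared beside them.

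Red pulp macrophages of the spleen take up old red blood cells and return their iron to the blood. Macrophages of erythroblastic islands in the marrow hold developing red cells around them, partly through the adhesion molecule VCAM1. PPARγ, the nuclear receptor named by the series, is activated by fatty acids and regulates lipid handling in many macrophages, and the transcription factor SPIC is a known regulator of red pulp macrophages.

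All 12 libraries came from C57BL/6 pups at day 7, with 1000 cells collected per library by flow sorting. RPM_d7 libraries are labelled red pulp macrophage (spleen) and BMM_d7 libraries bone marrow macrophage, and the genotype label is either WT or vavCre. In vavCre mice the Cre enzyme is expressed from Vav regulatory elements, active throughout blood-forming cells, so both macrophage populations and the blood cells around them can carry the deletion. No label names the floxed gene. The series describes its deficient cells as the few that are left, so the vavCre libraries sample residual cells of each gate. No label states whether replicates are separate animals, and p-values therefore measure the spread between these samples, which may be technical. In bulk libraries of this kind fewer cells of a type and less RNA per cell cannot be told apart.

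Depth differed with tissue. Whole reads recovered per library ranged from 11618353 to 21744219 in spleen wild type, 12005341 to 17139943 in spleen vavCre, 4582763 to 10846454 in marrow wild type and 4262478 to 7879341 in marrow vavCre. Macrophage genes were high in every group. The colony-stimulating factor receptor gene Csf1r, a defining marker of the lineage, lay between 8770 and 23770 in all 12 libraries, and the summed level of 16 pan-macrophage genes ran from 187204 to 345783. Among the other cell types checked, summed erythroid levels were lower in vavCre in both tissues, and the sums of monocyte and of T and NK cell genes, given with the gene lists, were higher. The erythroid summed level ran from 233748 to 345134 in spleen wild type, 120967 to 172660 in spleen vavCre, 239299 to 351914 in marrow wild type and 95155 to 138720 in marrow vavCre. Levels here and below are normalised read counts, which compare between libraries of this table but not between genes of different length.

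Pparg and Spic were read first. Pparg, the nuclear receptor gene, held 1691, 1550 and 2124 in spleen wild type, 4002, 2496 and 2613 in spleen vavCre, 1703, 1601 and 1605 in marrow wild type and 2972, 2088 and 1813 in marrow vavCre. Its splenic rise was called (limma adjusted p = 0.0313), and the call was lost in 3 of the 12 fits that left out 1 library (up to 0.175). In marrow no change was called (0.193). The effects on Pparg did not differ detectably between tissues (difference 0.29, 95% interval -0.30 to 0.87, limma adjusted p = 0.914). A value summed over the whole gene says nothing about a deleted exon, so it is no check of the vavCre label. Spic held 14600, 14180 and 16130 in spleen wild type and 10010, 9352 and 8417 in spleen vavCre, against 4985, 6704 and 6181 and 4934, 5424 and 6215 in marrow. The replicates separated in spleen, where the fall was called (-0.69, limma adjusted p = 0.00116). They overlapped in marrow, where no change was called (-0.10, 0.705). The difference between the 2 effects was -0.59 (-0.95 to -0.23), but did not pass over all genes (limma adjusted p = 0.415), so Spic was not placed among the spleen-only responses.

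Before the values, the start regions of 3 genes are shown, because these genes carry the clearest forms of the tissue difference: Cd209f and Cd209g, neighbouring C-type lectin genes that rose in both tissues and more in spleen, and Timd4, the gene that moved in opposite directions. Each is the 250 bases before the RefSeq start, 5′ to 3′ along the gene's strand (GRCm38.p6), at chr8:4105765-4106014 (minus strand), chr8:4134486-4134735 (plus strand) and chr11:46810549-46810798 (plus strand). GENCODE, whose coordinates are used below, starts both lectin genes further upstream. By it the Cd209g window lies inside the gene, and the Cd209f window overlaps the first bases of its gene. In the lectin genes capitals mark the longest run of identical bases, 154 bases. It ends 0 bases before the RefSeq start of Cd209f and 14 bases before that of Cd209g. In Timd4 capitals mark matches to 3 short motifs on either strand: GGAAGT (the core bound by PU.1 and other ETS factors), AGGTCA (the half-site of nuclear receptors) and TGCTGA (the half-site of MAF factors, here on the opposite strand).
Cd209f: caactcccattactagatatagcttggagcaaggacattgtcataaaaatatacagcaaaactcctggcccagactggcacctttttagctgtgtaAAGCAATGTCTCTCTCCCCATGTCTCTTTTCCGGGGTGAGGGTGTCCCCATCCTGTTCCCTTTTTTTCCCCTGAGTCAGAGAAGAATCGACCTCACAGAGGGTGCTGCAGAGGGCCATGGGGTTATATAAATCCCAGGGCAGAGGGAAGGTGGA
Cd209g: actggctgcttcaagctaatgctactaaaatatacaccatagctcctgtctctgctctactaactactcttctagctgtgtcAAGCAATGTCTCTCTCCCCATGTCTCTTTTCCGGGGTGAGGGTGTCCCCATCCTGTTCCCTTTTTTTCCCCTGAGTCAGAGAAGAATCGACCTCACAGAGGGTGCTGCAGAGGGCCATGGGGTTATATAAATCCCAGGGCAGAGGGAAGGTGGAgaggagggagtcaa
Timd4: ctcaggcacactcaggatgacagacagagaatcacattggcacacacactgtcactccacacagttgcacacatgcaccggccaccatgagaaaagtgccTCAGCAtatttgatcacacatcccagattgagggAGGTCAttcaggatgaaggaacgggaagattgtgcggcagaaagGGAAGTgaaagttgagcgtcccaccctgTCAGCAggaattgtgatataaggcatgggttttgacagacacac

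Over the aligned windows 209 bases were identical between the 2 lectin genes (77.7% identity, 22 mismatches and 38 gap positions). None of the 3 motifs stood in either lectin window. Of 27025 promoter windows of the same length, 19.99% held GGAAGT, 13.84% AGGTCA and 15.82% TGCTGA, so short matches of this kind are frequent. The RefSeq table matched 13 of the 18 genes described below, and of these 5 held GGAAGT, 1 AGGTCA and 2 TGCTGA. A match is a description of the sequence and not evidence of a bound site.

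Most vavCre responses ran the same way in both tissues. Of 15130 genes tested by limma, 5.52% passed an adjusted p of 0.05 in spleen, with 451 rises (2.98%) and 384 falls (2.54%). In marrow 7.81% passed, with 516 rises (3.41%) and 666 falls (4.4%). The 3 replicates of the genotypes did not overlap for 24% of all tested genes in spleen and for 19.8% in marrow, a share against which separate replicates of a single gene should be read. Over the 1499 genes called in either tissue the 2 effects had the same sign in 93.1%, with Pearson's r of 0.71 and Spearman's rho of 0.77 across genes. Over the 11125 genes with a mean level of at least 20, called or not, 67.6% had the same sign, r was 0.54 and rho 0.49. The 2 effects rest on different libraries, and genes are not independent replicates.

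The difference itself was called for 18 genes, 0.119% of those tested, 17 with a higher log2 change in spleen (0.112%) and 1 with a lower one (0.00661%). An unadjusted p under 0.05 was found for 935 genes. The sorting gave 13 genes that changed in the same direction in both tissues with a called difference (0.0859%, 11 rises and 2 falls), 1 opposite gene, 1 spleen-only gene (0.00661% each) and 3 marrow-only genes (0.0198%). A further 504 genes (3.33%) were shared with no difference called, 273 of them rises and 231 falls. Another 316 genes (2.09%) passed in spleen and 661 (4.37%) in marrow without a called difference, and these were left unresolved, since passing in 1 tissue and missing in the other is not a difference. The remaining 13631 genes (90.1%) were called in neither tissue. The split between higher and lower depends on the scale and the test. On a square root scale, which gives less weight to a fold from a low level, limma called 8 genes higher and 11 lower, and DESeq2 on recovered reads called 73 and 28.

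**Figure D1:**
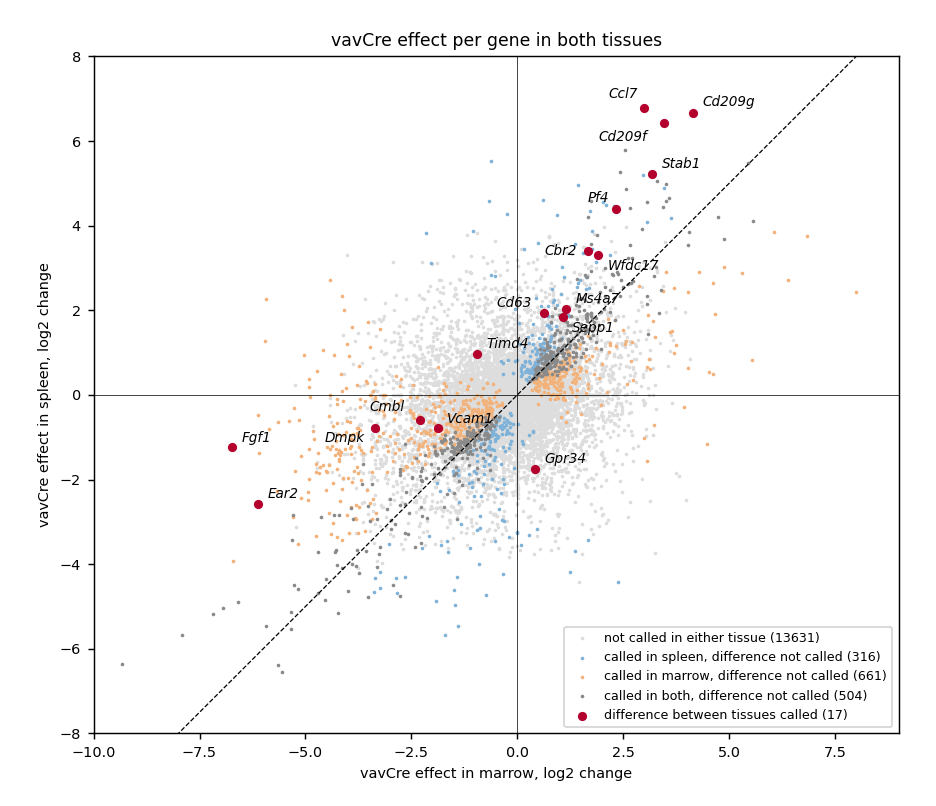
Each point is a tested gene, with its vavCre log2 change in marrow on the x axis and in spleen on the y axis; the dashed line marks equal effects and colours give the response class. The 17 genes drawn of the 18 with a called difference (red, named) lie off the line, with Gpr34 below it and the others above it, while the 504 shared genes lie along it.

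The C-type lectin genes Cd209f and Cd209g (chr8:4102787-4105835, minus strand, and chr8:4134098-4137707, plus strand), whose products belong to the DC-SIGN family of sugar-binding receptors, rose in both tissues. Cd209f held 473.8, 658.1 and 311.7 in spleen wild type and 41770, 41940 and 35480 in spleen vavCre. In marrow it went from 2753, 1523 and 2296 to 25250, 25550 and 19670. It was thus lower in spleen than in marrow in wild type and higher in vavCre, with no overlap at either step. The tissues did not overlap for 20.6% of all tested genes in wild type and for 19.5% in vavCre. The vavCre gap of Cd209f, 0.76, was not called (limma adjusted p = 0.0754). The rise was 6.43 in spleen and 3.45 in marrow on the log2 scale, a difference of 2.97 (2.30 to 3.64, limma adjusted p = 0.000482). Cd209g went from 101.5, 141.3 and 61.6 to 11510, 10390 and 7986 in spleen and from 239.3, 212.9 and 225.8 to 3891, 4662 and 3569 in marrow. Its difference was 2.52 (1.80 to 3.24, limma adjusted p = 0.00173), and it was the only one of 15130 genes whose tissue gap turned, being called lower in spleen in wild type (-1.22, adjusted p = 0.0065) and called higher in vavCre (1.29, adjusted p = 0.00363, both by limma). The genes share part of their sequence: 29.8% of the 50-base words of Cd209f transcripts also occur in Cd209g, and 16.6% the other way, so reads of these stretches cannot be assigned to 1 of them with certainty. Cd209b, a relative, averaged 247 ± 207 (SD, n = 3) in spleen vavCre, the highest of its 4 group means, with no effect called in either tissue.

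Receptors for dying cells and scavenged ligands were represented by Stab1 and Timd4. Stab1 (chr14:31139013-31168641, minus strand), which encodes the scavenger receptor stabilin-1, held 219.4, 242.6 and 147.8 in spleen wild type and 6589, 7539 and 8392 in vavCre. In marrow the values were 1036, 1097 and 1006 against 8130, 10240 and 10490. The libraries of the genotypes stood far apart in both tissues, and the vavCre levels of the tissues overlapped. Its log2 rise was 5.22 in spleen and 3.19 in marrow (difference 2.03, 1.51 to 2.56, limma adjusted p = 0.000584).

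Timd4 (chr11:46810800-46844332, plus strand), which encodes TIM-4, a receptor for phosphatidylserine on dying cells, was the single opposite gene. Its values were 2690, 3223 and 2632 in spleen wild type and 6424, 5297 and 5132 in spleen vavCre, so each vavCre library lay above each control. In marrow they were 4052, 3709 and 4044 in wild type and 2998, 1990 and 1410 in vavCre, all below the controls. The effects were 0.98 (limma adjusted p = 0.00329) and -0.95 (0.00392), and the difference of 1.93 had an adjusted p of 0.00259 by limma. No tissue gap was called in wild type (-0.47, 0.226), and in vavCre Timd4 was 1.46 log2 units higher in spleen (limma adjusted p = 0.000121). Leaving out any 1 of the 12 libraries kept both effects and their difference.

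Vcam1 (chr3:116109949-116129688, minus strand), the adhesion molecule that binds integrins on erythroblasts, fell in both tissues and fell deeper in marrow. Spleen libraries held 56220, 57970 and 64210 in wild type and 34620, 36170 and 32840 in vavCre, and marrow libraries 54420, 46330 and 58170 against 15970, 13590 and 13580. The wild-type libraries of the tissues overlapped, and the vavCre libraries did not. Of the wild-type mean 58.1% was left in spleen and 27.1% in marrow. The difference was 1.10 (0.82 to 1.37, limma adjusted p = 0.000584).

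Gpr34 (chrX:13632089-13640858, plus strand), the gene of a receptor for lysophosphatidylserine, was the single spleen-only gene and the single difference below 0. It went from 1432, 751.2 and 1552 to 295.8, 362.9 and 407.8 in spleen, with a log2 change of -1.75 (limma adjusted p = 0.000569). In marrow it read 370, 486.2 and 627.1 in wild type and 598.7, 844.8 and 531.9 in vavCre, which overlap (0.42, -0.18 to 1.02). The difference of -2.17 had an adjusted p of 0.0364 by limma. That call was lost in 9 of the 12 fits that left out 1 library, with adjusted p up to 0.161, and held without spleen wild-type replicate 2, marrow wild-type replicate 3 or marrow vavCre replicate 3.

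Among secreted products, the chemokine gene Pf4 (chr5:90772435-90773383, plus strand; platelet factor 4) held 527.5, 590 and 487.3 in spleen wild type and 9144, 11010 and 14120 in vavCre. Marrow libraries held 4066, 2413 and 3723 and then 15850, 16840 and 17850. The gap, spleen minus marrow, was -2.64 in wild type and -0.58 in vavCre, where it was not called (limma adjusted p = 0.0819). The difference between the rises was 2.05 (1.53 to 2.57, limma adjusted p = 0.000584). Pf4 is also a platelet gene. Of the 11 other megakaryocyte and platelet markers tested, 0 were called as rises in either tissue and 1 as a fall in marrow. Over all genes 2.98% rose in spleen, and 3.41% rose and 4.4% fell in marrow. Few calls are therefore likely in so short a list. Its median effect was -1.25 in spleen (2 of 11 above 0) and 0.33 in marrow (6 of 11 above 0). The summed level of the list ran from 216 to 652 in spleen wild type and 237 to 454 in spleen vavCre. Marrow sums spanned 217 to 331 (wild type) and 143 to 257 (vavCre). The part of platelets in the Pf4 level was not tested.

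Ccl7 (chr11:82045712-82047525, plus strand), a chemokine gene whose product attracts monocytes, rose from the lowest level of the 18 genes. Spleen wild-type libraries held 6.647, 14.13 and 3.65 and vavCre libraries 627.2, 875.8 and 1270. In marrow the values were 68.37, 57.82 and 105.6 against 1143, 543 and 353.1. Both tissues reached overlapping vavCre levels from start levels that did not overlap. The difference was 3.78 (2.25 to 5.30, limma adjusted p = 0.0484), and 10 of the 12 fits without 1 library lost the call, with adjusted p up to 0.222, the 2 that kept it being those without spleen wild-type replicate 2 or marrow vavCre replicate 1.

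Wfdc17 (chr11:83703991-83706268, plus strand), which encodes a small secreted protein with a whey acidic protein domain, went from 1080, 1208 and 1104 to 10550, 11670 and 11250 in spleen. In marrow it went from 2695, 2032 and 1869 to 8599, 8241 and 7752. The order of the tissues changed between the genotypes, but the vavCre gap of 0.44 was not called (limma adjusted p = 0.0756). Its difference was 1.39 (0.99 to 1.78, limma adjusted p = 0.00173). Sepp1 (chr15:3268547-3280508, plus strand), the gene of the selenium carrier selenoprotein P, was the most abundant of the 18, at 46710, 47760 and 56560 against 167700, 185100 and 185100 in spleen and 75620, 74500 and 72890 against 150600, 142100 and 177000 in marrow. The vavCre libraries of the tissues overlapped. Its difference was the smallest of the 18, 0.77 (0.52 to 1.02, limma adjusted p = 0.00608).

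Ear2 (chr14:44102654-44103534, plus strand), a ribonuclease gene named for eosinophils, fell in both tissues. Spleen values went from 3526, 3060 and 3712 to 525.9, 604.5 and 602.9, and marrow values from 1760, 2019 and 2666 to 23.03, 13.33 and 81.48. Of the wild-type mean 16.8% was left in spleen and 1.83% in marrow. The difference was 3.55 (2.34 to 4.76, limma adjusted p = 0.0098), lost without marrow wild-type replicate 3 (0.0557) or marrow vavCre replicate 1 (0.0694). The eosinophil marker Siglecf was low, at 19.34, 17.45 and 31.03 in spleen wild type and 8.592, 13.57 and 14.28 in spleen vavCre. In marrow it was at 0, 1.752 and 29.26 in wild type and at 0 in all 3 vavCre libraries. Of the list of 8 eosinophil, basophil and mast cell genes tested, Ear2 alone was called in the spleen effect, the marrow effect or the difference. These calls covered 5.52%, 7.81% and 0.119% of all genes, so few calls are likely in so short a list. In the same list Mcpt8 averaged 676 ± 1132 (SD, n = 3) in marrow wild type and 927 ± 863 in marrow vavCre. The part of such cells in the Ear2 level was not tested. Ear2 shares 41.5% of its 50-base words with other genes, Ear10 first among them, so its level may include reads of its relatives.

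Fgf1, the gene of fibroblast growth factor 1, had a called fall in marrow and none in spleen. It went from 98.54, 330.3 and 121.2 to 0, 2.424 and 0, with 2 reads in all 3 vavCre libraries against 542 in wild type. Pooled over libraries that is a ratio of 182 (95% counting interval 50.2 to 1508). Spleen libraries held 114.8, 128.8 and 208.1 in wild type and 93.9, 55.11 and 44.43 in vavCre, a change of -1.23 that was not called (-2.80 to 0.33), although the replicates did not overlap. The difference of 5.49 (3.28 to 7.70) had an adjusted p of 0.0484 by limma and was lost in 10 of the 12 fits without 1 library, with values up to 0.205, while it held without marrow vavCre replicate 2 or 3. Such an interval reflects counting alone, because amplified reads that carry no molecular barcode can be copies of 1 molecule.

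The other marrow-only genes encode a kinase and a hydrolase. Dmpk (chr7:19083849-19093821, plus strand), a serine/threonine kinase gene, held 643.5, 525.6 and 522.6 in marrow wild type and 50.24, 84.84 and 36.21 in vavCre, a log2 change of -3.36. In spleen it held 669.5, 550.9 and 432.1 against 287.8, 262.8 and 422, which do not overlap but were not called (-0.77, limma adjusted p = 0.25). Cmbl (chr15:31565389-31590119, plus strand), a hydrolase gene, held 876.8, 1144 and 999.2 against 165.4, 287.3 and 174.3 in marrow and 2460, 2156 and 2659 against 1753, 1673 and 1379 in spleen (-0.60, limma adjusted p = 0.129). In both genes, as in Fgf1, the spleen libraries separated by genotype, so marrow-only describes the calls and not an absence of change in spleen. The difference was 2.59 for Dmpk (1.60 to 3.58, limma adjusted p = 0.0309) and 1.70 for Cmbl (1.07 to 2.33, 0.0252). Dmpk kept its call only without marrow vavCre replicate 2 or 3 (up to 0.144 otherwise), and Cmbl only without spleen vavCre replicate 3, marrow wild-type replicate 1, or marrow vavCre replicate 2 or 3 (up to 0.0935 otherwise).

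Membrane and enzyme genes completed the list. Cd63 (chr10:128900989-128912822, plus strand), the gene of a tetraspanin of late endosomes, went from 882.8, 718 and 1080 to 3617, 2958 and 3614 in spleen and from 5323, 5554 and 5344 to 8576, 9379 and 7177 in marrow. Marrow stayed above spleen at both steps, with gaps of -2.62 and -1.30 log2 units. The difference of 1.32 (0.87 to 1.76, limma adjusted p = 0.0098) held without any 1 library, but its marrow rise alone was lost without marrow vavCre replicate 2 (0.0629). Cbr2 (chr11:120729489-120732114, minus strand), a carbonyl reductase gene, had similar wild-type levels in the tissues, 279.2, 314.9 and 423.4 in spleen and 281.5, 256.7 and 190.2 in marrow. It reached 3569, 3395 and 3641 in spleen vavCre and 661.5, 880 and 769.5 in marrow vavCre. Cbr2 was the one rising gene with no wild-type gap called (0.48, limma adjusted p = 0.288), and its difference was 1.73 (1.08 to 2.38, 0.0258). Ms4a7 (chr19:11321039-11336146, minus strand), a gene of 4-span membrane proteins of macrophages, went from 2465, 2857 and 2912 to 13010, 10520 and 10470 in spleen and from 5168, 5212 and 5372 to 12100, 11600 and 11350 in marrow, where the vavCre libraries of the tissues overlapped (difference 0.89, 0.56 to 1.21, limma adjusted p = 0.023).

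The call of Cbr2 was lost in 8 of the 12 fits without 1 library (up to 0.126) and held without replicate 3 of spleen or marrow wild type or without marrow vavCre replicate 2 or 3. That of Ms4a7 was lost in 6, those without replicate 1 of any of the 4 groups, marrow wild-type replicate 3 or marrow vavCre replicate 2 (up to 0.0955). In all, 10 of the 18 differences held in each of the 12 fits, and all 18 kept their sign in them. The count of 18 dropped to 11 without spleen wild-type replicate 1 and to 11 without marrow vavCre replicate 1. Just outside the threshold were the neuropilin gene Nrp2 and the kinase gene Fyn, both at an adjusted p of 0.0505 by limma, while Ccl7 and Fgf1 stood just inside at 0.0484.

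**Figure D2:**
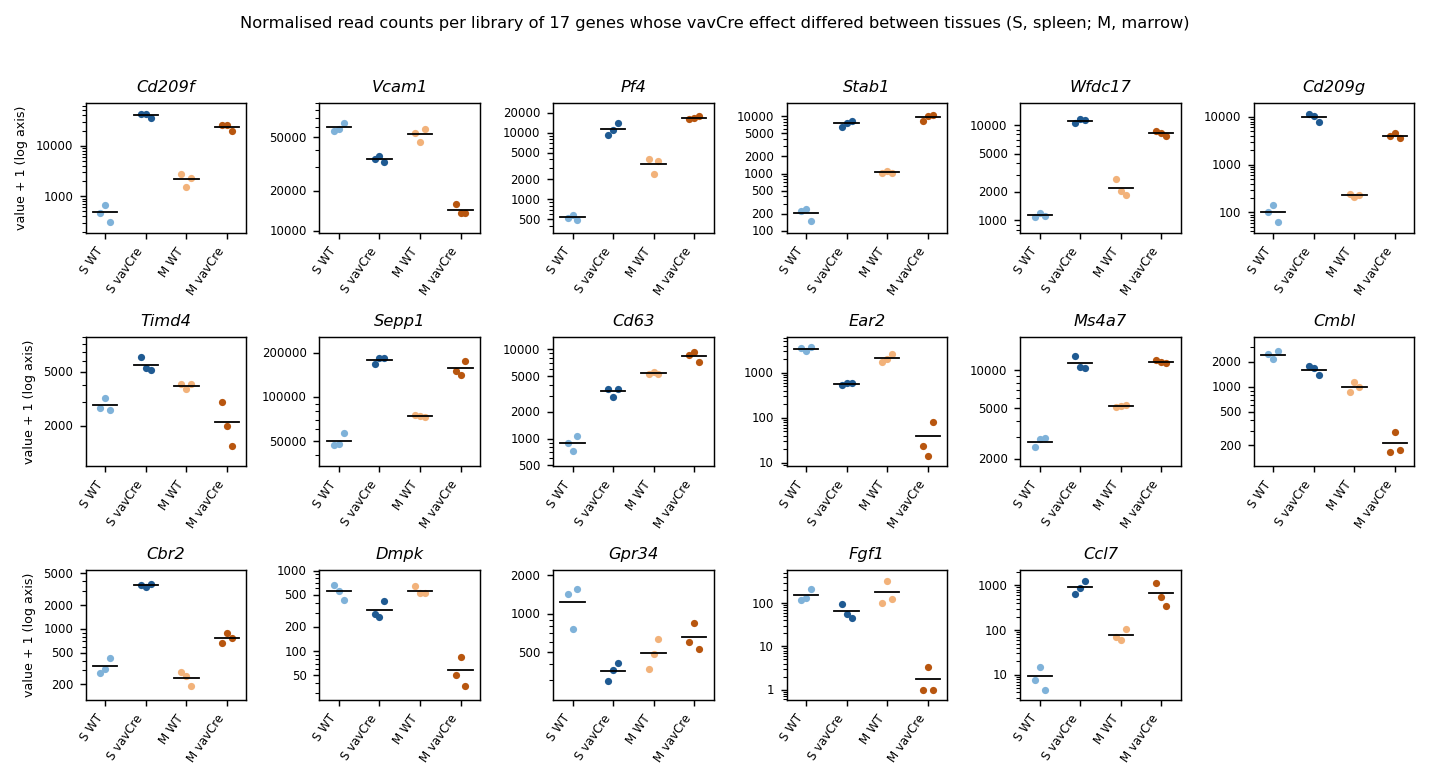
Normalised read counts + 1 on a log axis for 17 of the 18 genes with a called difference; points are libraries (3 per group), bars are group means, blue is spleen (S) and orange is marrow (M), with vavCre in the darker shade. Timd4 rises in spleen and falls in marrow, and Fgf1 in marrow vavCre holds the values 0, 2.424 and 0.

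Start levels differed for most of the rising genes. Wild-type libraries showed a called tissue gap in 588 of 15130 genes (3.89%), 313 higher in spleen (2.07%) and 275 lower (1.82%), and vavCre libraries in 529 (3.5%), 405 higher in spleen (2.68%) and 124 lower (0.82%). The difference between the vavCre effects is the vavCre gap minus the wild-type gap, so the 3 share libraries and are given side by side only. Of the 11 shared rises with a called difference, 10 started lower in spleen in wild type, and for 8 of the 11 no gap was called in vavCre. Over all 18 genes, the gap was called in wild type and not in vavCre for 9 (closed, among them Cd209f, Pf4, Stab1, Wfdc17, Sepp1, Ms4a7, Gpr34 and Ccl7). It was called in vavCre and not in wild type for 6 (opened: Vcam1, Timd4, Ear2, Cbr2, Dmpk and Fgf1). The gap was called in both with the same sign for 2, Cd63 and Cmbl, and turned in Cd209g. Among all 15130 genes 347 gaps closed, 288 opened, 240 were kept and 1 turned by the same calls.

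**Figure D3:**
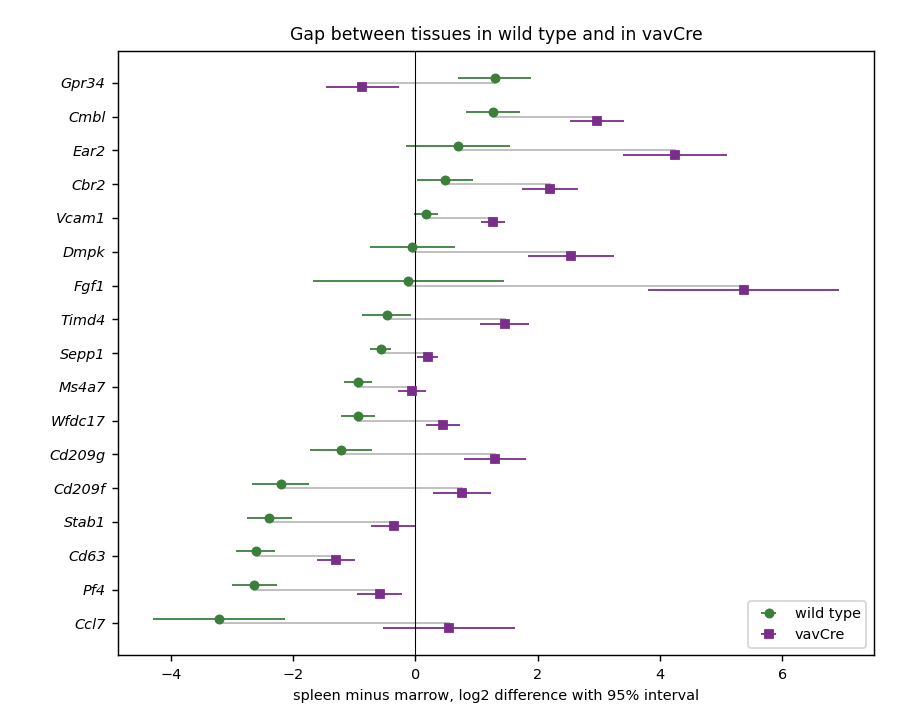
For 17 of the 18 genes the log2 gap between tissues (spleen minus marrow, with 95% interval) is drawn in wild type (green circles) and in vavCre (purple squares). Rising genes such as Pf4 move from -2.64 to -0.58, toward 0, whereas the falling genes Vcam1, Ear2, Dmpk and Fgf1 have no called gap in wild type and end above 0.

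A difference of log2 changes is a ratio of ratios, and the same genes were therefore also compared by the amount gained or lost as a value. Of the 11 shared rises, 7 gained more in spleen and 4 gained less, and 6 of the 7 and 0 of the 4 were apart by over 2 standard errors. Cd209f gained 39249 ± 2128 (SE) in spleen and 21299 ± 1945 in marrow. Sepp1 gained 128957 ± 6587 against 82230 ± 10537, Wfdc17 10026 ± 329 against 5999 ± 352 and Cbr2 3196 ± 84.9 against 528 ± 68.7. These genes rose more in spleen on both scales. Pf4, Stab1 and Cd63 gained less in spleen as a value, for example 10890 ± 1452 against 13446 ± 766 for Pf4 and 7303 ± 522 against 8574 ± 749 for Stab1, so their differences are on the ratio scale and come with lower start levels. Of the 5 genes that fell deeper in marrow on the log2 scale, 3 lost more there as a value (Vcam1, Dmpk and Fgf1), and Ear2 and Cmbl lost less.

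On the square root scale limma kept 5 of the 18 (Cd209f, Cd209g, Timd4, Wfdc17 and Cbr2) and called 14 others. The scavenger receptor gene Marco was one of them. Its log2 rises were 2.68 and 2.72 (difference -0.04, -0.58 to 0.50), while its level gained 14945 ± 771 in spleen and 6005 ± 511 in marrow, from wild-type means of 2801 and 1106. Fgf1, at the other end, is among the 13 genes that left. Of the 11 genes called lower in spleen by this scale, Slpi, Hs3st2, Id2, Hcar2, Cd300e, Itgad, Sh2d1b1, Cela1 and Gpnmb had a higher wild-type mean in spleen, for example 1194 ± 121 (SD, n = 3) for the protease inhibitor gene Slpi. Slc13a3 and Fcrls had a lower one, 68.4 against 123 and 0.277 against 4.18. For Gpnmb both wild-type means were near the floor, 8.26 ± 13.8 in spleen and 0.67 ± 1.16 in marrow, and its called change was a marrow rise. For Itgad the sign depended on the scale, with a log2 difference of 2.99 (0.15 to 5.82, limma adjusted p = 0.78).

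Tests on recovered reads called all 18 genes as well. edgeR's quasi-likelihood test found 31 (0.205%) and DESeq2 101 of 12419 (0.813%), and 13 genes were called by both and not by limma. The 8 most abundant of these were Nrp2, Fyn, Cela1, Myo5a, Paqr9, Pilrb2, Slco2b1 and Ccl2. Myo5a, the gene of a myosin that carries vesicles, and Nrp2 followed the pattern of lower start in spleen: Nrp2 went from 24.78, 92.24 and 57.49 to 929.8, 915.7 and 1016 in spleen and from 1263, 596.6 and 929.1 to 2807, 2737 and 2978 in marrow. Fyn, Paqr9 and the transporter gene Slco2b1 fell in both tissues and deeper in marrow by these tests, and Pilrb2 fell in marrow (-1.70) with no call in spleen (-0.46). Fyn went from 1951, 1929 and 1392 to 564, 551.1 and 577.5 in spleen and from 1195, 1451 and 1098 to 58.61, 153.9 and 104.1 in marrow. Cela1, an elastase gene, fell deeper in spleen (-1.76 against -0.65), and its marrow fall was lost without marrow vavCre replicate 1 (0.0587). The monocyte chemokine gene Ccl2 rose by 5.26 and 2.44.

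**Figure D4:**
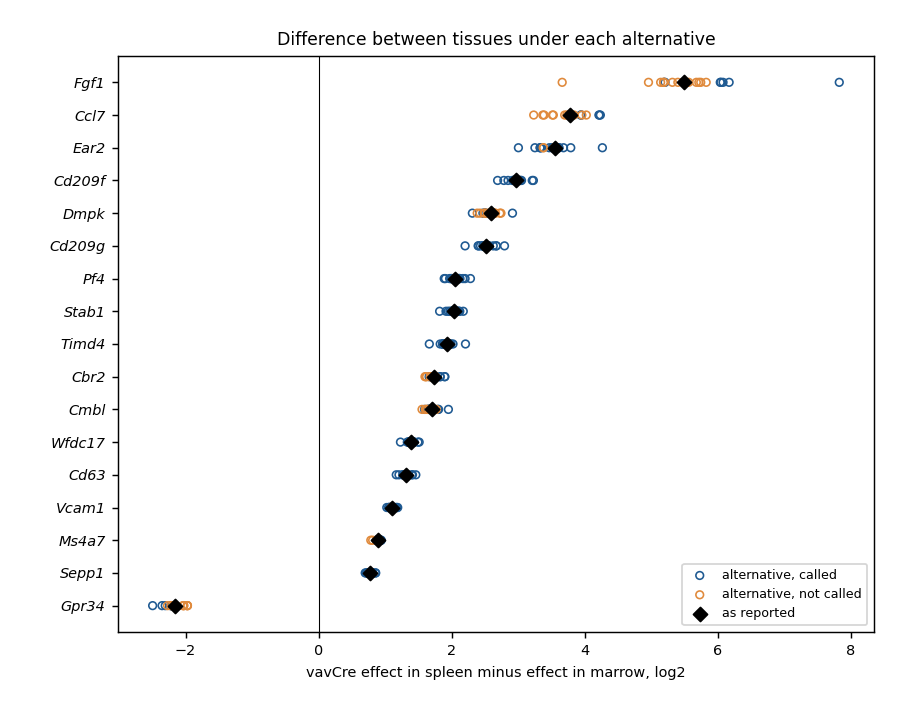
Spleen effect minus marrow effect (log2) for 17 of the 18 genes as reported (black diamonds) and under each alternative on the log2 scale (open circles, blue where called and orange where not). All 17 stay on their side of 0, from Fgf1 at 5.49 to Gpr34 at -2.17, and the smallest differences called in every fit without 1 library include Sepp1 at 0.77.

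The shared response was described beside the differences. Its strongest rises included Ednrb, the gene of the endothelin B receptor, with 13.29, 19.11 and 52.93 against 846.9, 1073 and 1526 in spleen and 162.9, 15.77 and 45.99 against 2177, 2359 and 2032 in marrow. The effects were 5.48 and 5.43, and the difference was 0.05 with an interval of -1.72 to 1.82, which does not exclude a sizeable difference either way. Tlr5 (the flagellin receptor gene), Pmp22, Tox2, Tnfrsf25 and Adam3 were the other leading rises, with differences from -1.45 to 1.09. The splenic calls of Tlr5, Adam3 and Tnfrsf25 depended on single libraries, reaching 0.108 (lost without spleen wild-type replicates 1 or 2, or vavCre 2 or 3), 0.136 (wild-type 1 or 3, vavCre 2 or 3) and 0.0654 (wild-type 2, vavCre 2). The marrow call of Tnfrsf25 was lost in 9 of 12 fits (up to 0.162) and kept without spleen wild-type replicate 2, marrow wild-type replicate 3 or marrow vavCre replicate 3.

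The strongest shared falls were led by Itgad, an integrin gene that marks red pulp macrophages. It went from 8529, 10180 and 8060 to 157.7, 184 and 42.84 in spleen and from 3378, 3891 and 3728 to 0, 8.484 and 18.11 in marrow, with no overlap in either tissue. Sh2d1b1 (a signalling adaptor gene), Mmp25, Lrrn3, Mpzl1, Ubd, Vstm4 and the lectin gene Clec4b1 fell beside it, with log2 changes of -5.02 to -6.54 in spleen and -5.34 to -7.90 in marrow. In marrow vavCre Mmp25, Lrrn3 and Ubd had 0 reads, at least 13.1-fold, 7.10-fold and 26.7-fold lower if each library is set to 3 reads. For the 504 shared genes with no difference called, the 95% interval of the difference lay within 1 log2 unit of 0 for 172 of the 273 rises and for 99 of the 231 falls. For the others a difference of that size was not excluded.

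The unresolved genes leaned the same way in the other tissue. Their shares stand beside 67.6% with the same sign among all genes with a mean level of at least 20. Of the 166 spleen rises without a called difference, 150 had a positive marrow effect (90.4%), and of the 150 spleen falls, 135 had a negative one (90.0%). Of the 232 marrow rises 211 were positive in spleen (90.9%), and of the 429 marrow falls 379 were negative (88.3%). The marrow falls were the largest and least precise of these classes, with a median spleen effect of -0.65, a median difference of 1.09 and a median width of 2.78 for the 95% interval of the difference. For 68 of the 429 the wild-type mean in spleen was under 20, which left little room for a fall there.

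Named by size, the unresolved spleen rises were Mmp8, Retnlg, Apol7c, Tmem171 and Mdfi, and the falls Snx31, Fabp4, Srpk3, Epha4 and Tc2n. Fabp4, a fatty acid carrier and a classical PPARγ target, held 107, 66.48 and 225.9 in spleen wild type and 4.91, 1.696 and 2.38 in vavCre. In marrow it held 203.1, 118.3 and 279.1 against 205.1, 89.69 and 15.84, which overlap. The difference was -3.49 (-5.92 to -1.06) but did not pass over all genes (limma adjusted p = 0.523). Mmp8 and Retnlg are neutrophil genes, and 7 of these 10 splenic calls were lost without at least 1 library (adjusted p up to 0.161, limma), while those of Snx31, Fabp4 and Mdfi were kept.

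The marrow rises were Gpnmb, Fcrls, Clec5a, Fam20c and Lyzl4, and the marrow falls Inf2, Adgrv1, Bag2, Epb4.1l4b and Chst3. Gpnmb, a lysosomal glycoprotein gene, held 322.4, 601.2 and 253.5 in marrow vavCre against 2.011, 0 and 0 in marrow wild type, and stayed between 0 and 25.39 in all 6 spleen libraries. Its difference of -5.56 (-8.90 to -2.22) was not called by limma (adjusted p = 0.398) and was called by edgeR (0.021) and DESeq2 (0.036). Bag2, a co-chaperone gene, held 136.7, 270.7 and 229.9 against 0, 2.424 and 6.79 in marrow and 236.3, 112.2 and 174.8 against 50.32, 82.24 and 62.67 in spleen (difference 4.73, 2.60 to 6.86, limma adjusted p = 0.104). Adgrv1 had 0 reads in marrow vavCre, at least 15.4-fold lower at the same floor, and overlapped between genotypes in spleen.

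Gene lists gave the view by function, as counts and medians beside those of all tested genes (median difference 0.03, median spleen effect -0.02, median marrow effect -0.04). Markers of resident macrophages outside the red pulp, a list written with these results known, had 6 of 17 tested members with a called difference, against 0.119% of all genes: Cd209f, Cd209g, Pf4, Stab1, Timd4 and Cbr2, all higher in spleen. Its median effect was 2.70 in spleen, where 10 rose (2.98% of all genes) and 0 fell, and 0.75 in marrow, where 8 rose (3.41%) and 1 fell. The list's name does not mean absence from the red pulp: wild-type spleen means were 15243 for Mrc1, 3560 for Cd5l and 2848 for Timd4. The wild-type gap was called higher in spleen for 1 member and lower for 4. Effects were above 0 for 15 of the 17 in spleen and for 10 in marrow. Cd5l (-1.98 and -3.45) and Nr1h3 (-0.95 and -0.92) were below 0 in both tissues, without a call. Not all members differed between tissues. Gas6, which bridges dying cells to their receptors, rose by 2.70 and 2.45 (difference 0.25, -0.26 to 0.76), and the folate receptor gene Folr2 by 2.94 and 1.75 (difference 1.18, 0.22 to 2.15, limma adjusted p = 0.683).

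Red pulp macrophage identity genes fell in both tissues, 12 of 16 in spleen (2 rose) and 11 of 16 in marrow (2 rose), beside falls of 2.54% and 4.4% of all genes, with medians of -1.26 and -2.07 and a median difference of 0.88. Vcam1 was the 1 member with a called difference. Siglec1, the sialoadhesin gene, held 957.2, 560.1 and 559 against 219.7, 381.5 and 316.5 in spleen and 892.9, 1008 and 1166 against 129.8, 137 and 230.9 in marrow, a difference of 1.49 (0.61 to 2.38) that was not called (limma adjusted p = 0.379). Its splenic fall was lost without spleen wild-type replicate 1 or vavCre replicate 1 or 3 (up to 0.175). The 2 members that rose in both tissues were Ednrb, described above, and the iron exporter gene Slc40a1. Ednrb rose by 5.48 and 5.43, among the strongest shared rises. Slc40a1 rose slightly, by 0.33 and 0.29 (difference 0.03, -0.19 to 0.26).

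Among chemokine genes 10 of 23 rose in spleen (0 fell) and 9 in marrow (2 fell), beside 2.98% rises in spleen and 3.41% rises and 4.4% falls in marrow over all genes, with a median marrow effect of 0.30 and a median difference of 1.40. Pf4 and Ccl7 had called differences. Cxcl10, induced by interferons, rose in both tissues, by 3.02 and 3.28 (difference -0.25, -1.06 to 0.56). Of 19 complement genes 7 rose (2.98% of all genes) and 1 fell (2.54%) in spleen, and 3 rose (3.41%) and 0 fell in marrow. The complement receptor gene C5ar1 rose from 33.24, 85.59 and 40.15 to 2018, 1404 and 1579 in spleen and from 94.52, 112.1 and 145.3 to 1199, 1206 and 1055 in marrow (difference 1.75, 0.78 to 2.71, limma adjusted p = 0.302). In genes for the clearance of dying cells 2 of 23 differences were called, Stab1 and Timd4, against 0.119% of all genes. Axl, a receptor of the same process, fell in both, with log2 changes of -1.88 and -2.77 (difference 0.88, limma adjusted p = 0.261). C-type lectins had 2 of 23, Cd209f and Cd209g, with a median difference of -0.30, below that of all genes. Scavenger receptors had 1 of 15 (Stab1).

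**Figure D5:**
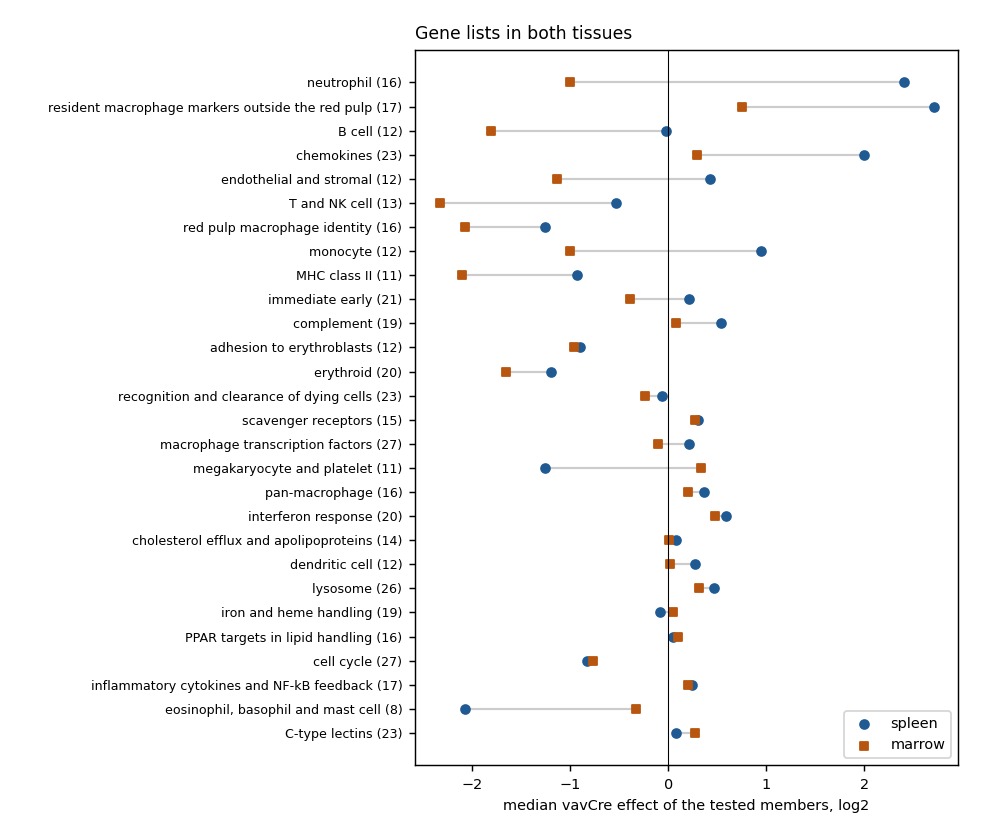
Median vavCre log2 effect of the tested members of 28 gene lists in spleen (blue circles) and marrow (orange squares), with the number of tested members in brackets, ordered by the median difference. The lists of neutrophil genes and of resident macrophage markers outside the red pulp lie furthest to the right in spleen, and cell cycle, lysosome and lipid lists have like medians in both tissues.

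Neutrophil genes had a median of 2.40 in spleen and a median difference of 2.75. Of 16, 2 rose in spleen (2.98% of all genes) and 1 in marrow (3.41%), with 0 differences called. Their summed level ran from 680 to 2913 in spleen wild type, 3012 to 6188 in spleen vavCre, 1943 to 4879 in marrow wild type and 2205 to 2784 in marrow vavCre. Members were present in both tissues, for example S100a8 with means of 284 and 1474 in spleen and 751 and 470 in marrow (wild type, then vavCre), while Elane was near 0 in spleen (1.52 and 3.58) and at 0 in marrow. B cell genes had medians of -0.03 and -1.80 with 0 differences called. They summed to 3531 to 7256 in spleen wild type and 1976 to 4002 in spleen vavCre, and to 4718 to 11773 and 2095 to 3729 in marrow. Monocyte genes summed to 2315 to 3336 in spleen wild type and 9861 to 11391 in spleen vavCre, and to 2069 to 2413 and 5727 to 8501 in marrow. Of the 12 monocyte genes 2 rose in each tissue, beside 2.98% of all genes in spleen and 3.41% in marrow. They were the fractalkine receptor gene Cx3cr1, by 3.23 and 2.71, and the integrin gene Itgal, by 2.86 and 2.23. These 2 genes hold most of the higher sum. The median of the list was 0.95 in spleen, and in marrow 2 of its 12 members had an effect above 0. T and NK cell genes summed to 848 to 1592 in spleen wild type and 2661 to 3257 in spleen vavCre, and to 1589 to 3253 and 5240 to 7240 in marrow. Of the 13, Cd4 alone was called, rising by 1.94 and 1.73, beside rises of 2.98% and 3.41% of all genes. The medians of the list were -0.53 and -2.33, although its sums were higher. Effects were above 0 for 4 of the 13 in spleen and in marrow for Cd4 alone. The part of these cell types in the differences above was not tested.

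MHC class II genes had 0 of 11 members called in spleen and 6 falls in marrow (4.4% of all genes), with medians of -0.93 and -2.10. The difference between tissues was called for 0 of the 11 by limma, edgeR or DESeq2. Immediate early genes started from different levels: 14 of 21 were higher in wild-type spleen than in wild-type marrow (2.07% of all genes). In vavCre 18 of 21 were higher in spleen (2.68% of all genes), and 0 differences were called. Erythroid genes fell in both tissues, 11 of 20 in spleen (2.54% of all genes) and 16 of 20 in marrow (4.4%). Their medians were -1.20 and -1.65, with 0 differences called. Cell cycle genes fell in both, 11 and 12 of 27, beside 2.54% and 4.4% of all genes (medians -0.82 and -0.77). Lysosome genes rose in 10 and 9 of 26, beside 2.98% and 3.41% of all genes (medians 0.46 and 0.31). PPAR targets in lipid handling had 1 rise (2.98% of all genes) and 5 falls (2.54%) of 16 in spleen. In marrow they had 2 rises (3.41%) and 2 falls (4.4%), and their median difference was -0.06.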

How the data were processed

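RNA of 1000 sorted cells per library was reverse transcribed from oligo-dT, amplified and tagmented, per the labels' protocols. The deposited table holds normalised counts per gene (a signal that is not whole numbers), which the authors appear to have made by dividing gene counts by a factor per library. The submitters' processing notes name STAR, edgeR and GRCm38, while versions and roles are not given in the sources used here. Of the values up to 500 reads, 97.7 to 100% were whole reads (within 0.1) once divided by the library's step. Those recovered reads served the count tests only, of which edgeR (4.0.16, quasi-likelihood) called 31 differences and DESeq2 (1.42.0) 101.

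Of 22524 genes, 15130 reaching a value of 1 in 2 or more of the 12 libraries were tested with limma (3.58.1, R 4.3.3) on log2(value + 1), with a trended and robust variance over 4 groups (8 residual degrees of freedom). The log2 scale understates changes of low genes. Calls used Benjamini-Hochberg adjusted p under 0.05 over all genes tested, and intervals are 95%. Values are per library or mean ± SD (SE for gains) over 3 libraries. Coordinates are those of GENCODE vM21 on GRCm38. On simulated reads for 15130 genes, 10 of 100 interactions of 2-fold and 44 of 100 of 4-fold were recovered, all with the right sign, and 3 unchanged genes were called.

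Genes and gene lists were chosen with earlier results of these data known. The genes named are Pparg and Spic, all genes with a called difference except 1 that is counted but not reported here, the 8 strongest shared rises and falls, the 5 strongest unresolved genes per tissue and direction, the 8 most abundant genes called by both count tests alone, and up to 3 genes per list. Shared and unresolved genes had replicates that did not overlap and, in the higher group, a mean no lower than 20. Other genes named, such as Csf1r, Marco, Slpi, Siglecf, Cd209b, Gas6 and Cxcl10, were chosen after their values were seen. Alternatives were other pseudocounts, filters, scales, normalizations, library weights, equal depth, count tests, replicate blocks and leaving out each library.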

Additional observations from a re-analysis of the deposited data

Results flagged for a closer look

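The vavCre effect differed between the tissues by a test of the difference itself (limma, adjusted p under 0.05) for 18 genes. The log2 spleen effect minus the log2 marrow effect was above 0 for 17 of them, among them Cd209f 2.97, Vcam1 1.10, Pf4 2.05, Stab1 2.03, Wfdc17 1.39, Cd209g 2.52, Timd4 1.93 and Sepp1 0.77, and further Cd63 1.32, Ear2 3.55, Ms4a7 0.89, Cmbl 1.70, Cbr2 1.73, Dmpk 2.59, Fgf1 5.49 and Ccl7 3.78. It was below 0 for Gpr34, at -2.17. The libraries behind each of these values are given in the report.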

How the results depend on the processing

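All 18 differences kept their sign under every alternative run, and their number did not. The 18 (17 higher, 1 lower in spleen) became 11 (11, 0) with no filter on low values, 0 (0, 0) with neither trend nor robust variance, where 916 had an unadjusted p under 0.05, 31 (28, 3) and 32 (29, 3) with edgeR under TMM and RLE, and 101 (73, 28) with DESeq2. The square root scale gave 8 higher and 11 lower. The 1 lower became 2 with a pseudocount of 0.1 or the stricter filter and 0 with a pseudocount of 5.

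With neither trend nor robust variance, the 835 spleen effects became 443, the 1182 marrow effects 665, the 588 wild-type gaps 183, the 529 vavCre gaps 212, the 517 shared genes 258 and the opposite, spleen-only and marrow-only genes 0 each. Library weights gave 1488 spleen effects, 964 wild-type gaps, 0 spleen-only and 6 marrow-only genes. DESeq2 gave 1290 spleen effects, 966 wild-type and 963 vavCre gaps, 27 spleen-only and 40 marrow-only genes. Asking for at least 1 log2 unit gave 546 spleen effects, 329 wild-type gaps, 312 shared, 0 opposite and 2 spleen-only genes. The 1 spleen-only gene became 0 with a pseudocount of 5 or no filter and 5 on the square root scale. The 3 marrow-only genes became 1 with a pseudocount of 5, 0 with no filter, and 7 and 8 with edgeR under TMM and RLE.

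Leaving out 1 library gave 11 to 24 differences (11 to 23 higher, 0 to 1 lower), 536 to 925 spleen and 890 to 1136 marrow effects, 269 to 665 wild-type and 271 to 630 vavCre gaps, 379 to 509 shared, 1 to 1 opposite, 0 to 2 spleen-only and 0 to 7 marrow-only genes. Counts dropped by over 1.5 times for spleen effects without spleen wild-type replicate 2 (555) or vavCre replicate 2 (536), for wild-type gaps without spleen replicates 1 (333) or 3 (269) or marrow replicates 1 (305) or 3 (315), and for vavCre gaps without spleen replicates 1 (271), 2 (339) or 3 (317). The cause of these changes was not tested.

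A replicate block gave 13 differences (13 higher, 0 lower), 784 spleen and 1094 marrow effects, 487 shared, 1 opposite, 0 spleen-only and 2 marrow-only genes, and a block within genotype also 13 differences. The replicate numbers gave no sign of pairing. Deviations of the 18 same-numbered pairs correlated between -0.097 and 0.094, 0 pairs were over 0.1, and 3 of 12 libraries correlated best with their own number. The 6 of these pairs within a genotype, which alone could share an animal, lay between -0.025 and 0.072. Low correlations of deviations from means of 3 libraries cannot show that libraries came from separate animals. Marrow libraries were shallower, and thinning all to 4262478 reads gave 19 differences and lost Fgf1.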
